A study of Mus musculus with 192 samples.

Results

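Arrb1, Arrb2 and Adrbk1 are the desensitisation genes on a panel of 43 target genes measured in the brains of mice that carry a human amylin transgene. They were chosen by name, as the rows with those gene names in the raw count table, a rule that holds no measured value, and all 3 of 3 were found. They were picked out for description with earlier results of these data known. They are followed here in RNA pools across brain region, time point, genotype and time of collection.

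A G protein-coupled receptor that stays bound to its ligand is switched off in steps. A receptor kinase phosphorylates the active receptor, a beta-arrestin then binds the phosphorylated tail, uncouples the receptor from its G protein and passes it to the endocytic machinery. Adrbk1, now named Grk2, encodes the beta-adrenergic receptor kinase, which acts on many receptors besides the adrenergic ones. Arrb1 and Arrb2 encode beta-arrestin 1 and beta-arrestin 2, which are expressed widely in the brain and also hold together signalling kinases such as Akt and Gsk3. The amylin receptor is itself a G protein-coupled receptor, formed by the calcitonin receptor Calcr and a receptor activity modifying protein (Ramp).

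The mice were L44 males on an FVB/n background, a strain in which a transgene for human amylin with a triple proline substitution (tripro) is driven by the rat insulin 2 promoter. Hemizygous (HEM) and homozygous (HOM) mice were compared with non-transgenic (NON) mice. T1 was the prediabetic stage (pools aged 99 to 101 days), T2 the onset of diabetes (90 to 286 days) and T3 the post-diabetic stage (400 to 408 days). Brains were collected in the morning (AM) or the afternoon (PM). They were cut into left cortex, right cortex, a hindbrain part that included the cerebellum, and a midbrain part that included forebrain and hypothalamus. Each pool held RNA of 1 or 2 mice, and the labels give pools of different regions the same mouse numbers, which were taken to mean the same mice. In 1 of 50 such mouse pools, HOM pool 1/5 at T3, the labelled ages differed between left cortex (403 and 405 days) and midbrain (403 and 401 days). At T3 the labels marked 12 of 24 NON pools, 13 of 23 HEM pools and 18 of 22 HOM pools as previously diabetic. That promoter acts mainly in the pancreatic beta cell.

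Counts came from a NanoString nCounter CodeSet, in which a barcoded probe pair is counted per transcript without amplification. The set also held 3 reference genes, 8 negative and 6 positive control probes. Hindbrain had 46 pools, midbrain 49, left cortex 48 and right cortex 49. The total count of the target genes per pool ran from 3489 to 525264 with a median of 234937. Its medians were 151091 in hindbrain, 245328 in midbrain, 278654 in left cortex and 414121 in right cortex. Values below are normalised counts, the raw count divided by the geometric mean of the pool's 3 reference genes and multiplied by 5072, the geometric mean of those over all pools. Fold-changes are on the log2 scale with their standard error (SE). Levels are compared between pools for 1 gene at a time, because probes for different genes are not captured equally.

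The 3 genes were well measured. Each lay above its pool's background, the negative probe mean plus 2 SD, in every pool, and the smallest margin was 11.1 times background, for Arrb2. Raw counts ran from 185 to 40105 for Arrb1, from 101 to 14908 for Arrb2 and from 260 to 20445 for Adrbk1. Replicate pools of 1 group differed little. The median coefficient of variation over 35 groups with 3 or more pools was 5.07% for Arrb1, 5.65% for Arrb2 and 5.40% for Adrbk1. With few pools per group, the number of pools limited the precision more than counting did.

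Some facts about the libraries bear on what follows. Hindbrain at T3 held 3 pools with very low reference counts, namely NON PM pool 5/6 (reference mean 510.8), NON AM pool 7 (267) and HOM AM pool 9 (131), against a hindbrain T3 median of 3652. Cortical reference counts were lower at T3, with medians of 7505 at T1 and 3685 at T3 in left cortex and of 8272 and 3569 in right cortex. In midbrain the medians were 5055 at T1 and 6171 at T3. The dissection was checked on hypothalamic neuropeptides, which were high in midbrain alone by their medians. Mch had a median of 20834 normalised counts in midbrain against 124.8, 86.2 and 94.3 in hindbrain, left cortex and right cortex, Hcrt 690.1 against 22.8, 24.2 and 25.1, and Agrp 94.6 against 34.3, 24.2 and 27. The panel held no marker of cortex or cerebellum. In such tissue pools a lower share of a cell type and less RNA per cell cannot be told apart.

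All 3 desensitisation genes were highest in the cortex, and they differed in which region was lowest. Arrb1 and Arrb2 were lowest in hindbrain, whereas Adrbk1, the receptor kinase, was lowest in midbrain. Among NON pools, Arrb1 measured 10367 ± 2211 normalised counts in hindbrain, 14528 ± 1242 in midbrain, 19096 ± 2389 in left cortex and 18545 ± 2527 in right cortex (mean ± SD, n = 18 in each). These SDs cover pools of all 3 time points.

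Arrb1 was 0.60 (SE 0.03) higher in midbrain than in hindbrain and 0.98 (SE 0.03) higher in left cortex than in hindbrain on the log2 scale. The left cortex exceeded the midbrain by 0.38 (SE 0.03). With TMM scaling these steps were 0.37, 0.73 and 0.35, and with positive control probes as the scale 1.58, 2.16 and 0.59. The positive control scale uses no target or reference counts, so differences in total count between pools remain in its values, here and below. Of the NON mouse pools measured in both regions, 15 of 15 had more Arrb1 in midbrain than in hindbrain, and 16 of 16 had more in left cortex than in midbrain. The cortices did not differ beyond their error (right minus left -0.04, adjusted p = 0.64), so the order was hindbrain, midbrain, then both cortices.

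Arrb2 followed the same order over a narrower range. Its NON values were 4573 ± 691 in hindbrain, 5707 ± 408 in midbrain, 6406 ± 759 in left cortex and 6450 ± 787 in right cortex (mean ± SD, n = 18 in each). Midbrain exceeded hindbrain by 0.38 (SE 0.03), again in 15 of 15 mouse pools (0.16 with TMM scaling and 1.36 with positive control probes), while each cortex exceeded midbrain by 0.17 (SE 0.03). This last step depended on the reference genes, since it was 0.05 in both cortices and no longer past the threshold when 1 reference gene was left out.

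Adrbk1 was ordered differently. It measured 6519 ± 518 in midbrain, 7734 ± 702 in hindbrain, 9706 ± 849 in right cortex and 10536 ± 659 in left cortex (mean ± SD, n = 18 in each). Midbrain lay below hindbrain by -0.24 (SE 0.03, adjusted p = 4.72e-11), and in 0 of 15 mouse pools was it higher. With TMM scaling, which sets library sizes from the target genes, this difference was -0.46. With the positive control probes as the scale it turned to 0.75. Left cortex exceeded midbrain by 0.68 in 16 of 16 mouse pools. Adrbk1 also differed between the hemispheres, with right minus left at -0.10 (adjusted p = 0.00693) and right higher in 1 of 17 mouse pools. The call was lost with TMM scaling (-0.074) and without the second reference gene (-0.086), and with positive control probes the sign turned (0.18). The difference was -0.08 (adjusted p = 0.0574) without the mice of T1 NON pool 4/5, and neither HEM (-0.03, adjusted p = 0.81) nor HOM (-0.01, adjusted p = 0.98) passed.

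**Figure D1:**
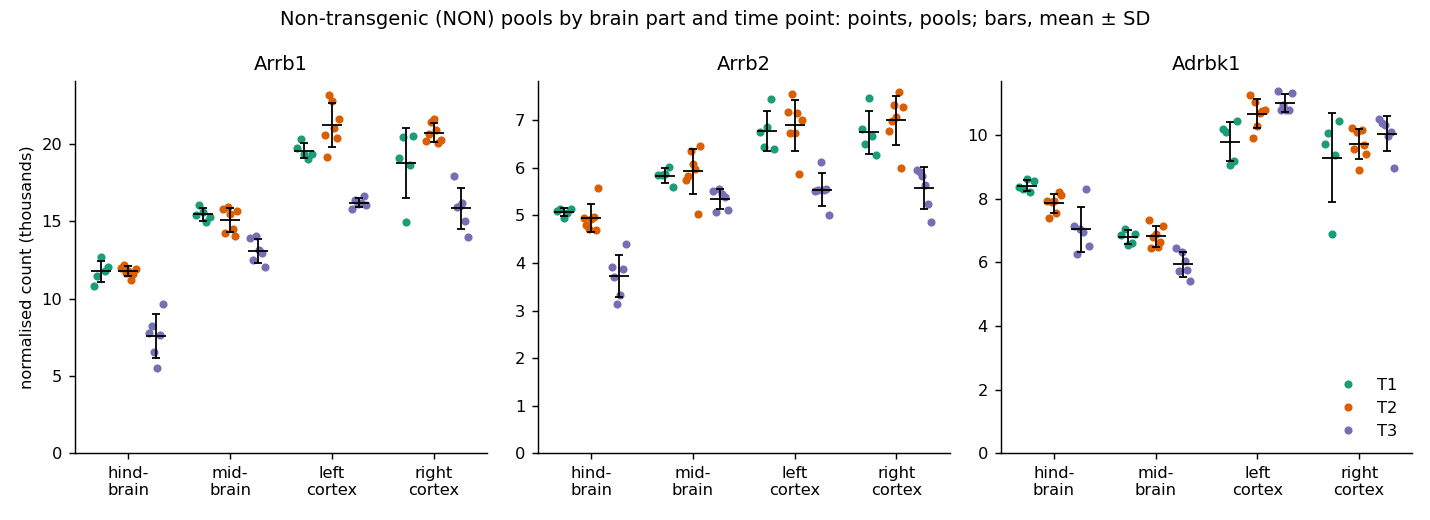
Normalised counts of Arrb1, Arrb2 and Adrbk1 in each NON pool by brain region and time point (coloured points), with bars for the mean ± SD of each group. Arrb1 and Arrb2 are lowest in hindbrain and Adrbk1 is lowest in midbrain (NON mean 6519), and all 3 are highest in the cortices, though with positive control probes as the scale Adrbk1 was higher in midbrain than in hindbrain.

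In these region comparisons regional differences were the rule on the panel and not particular to desensitisation. Over the 3 genotypes, 46 of 54 tests of the 3 genes passed an adjusted p under 0.05 (42 higher and 4 lower in the first-named region), where 66.7% of the tests of all 43 target genes passed. For NON cortex against midbrain or hindbrain, 12 of 12 tests were higher in cortex, where 46.5% of all such tests were. Both signs of the midbrain to hindbrain step held in HEM and HOM. Arrb1 was higher in midbrain by 0.38 in HEM and 0.43 in HOM, and Adrbk1 was lower, at -0.24 in HEM and -0.31 in HOM. On the reference-gene scale no regional difference of Arrb1, Arrb2 or Adrbk1 reached the study's 2-fold criterion, which 21.6% of all tests met. Against the median gene, which was 0.41 higher in midbrain than in hindbrain, Arrb2 lay close (0.38), Arrb1 above (0.60) and Adrbk1 below (-0.24).

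The balance between the genes can be read without reference genes, from the ratio of 2 counts in the same pool. Only changes of a ratio are read here, since its level depends on the probes. In 0 of 15 NON mouse pools was the ratio of Adrbk1 to Arrb1 higher in midbrain than in hindbrain. The mean log2 difference was -0.74 (SD 0.28, exact sign-flip permutation test, two-sided, adjusted p = 0.000863). From midbrain to left cortex the ratio went the other way, 0.26 higher in 16 of 16 mouse pools, and to right cortex it was 0.22 higher in 16 of 17. The ratio of Arrb2 to Arrb1 was highest in hindbrain. Against hindbrain its log2 difference was -0.19 in midbrain, -0.38 in left cortex and -0.33 in right cortex. Across the cortices it did not separate (0.05, adjusted p = 0.276). Of 12 such region tests 11 passed, adjusted over all 44 ratio tests. Ratios of other target genes were not computed, so no count of ratio tests or of overlap, here or below, can be set against the panel.

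**Figure D2:**
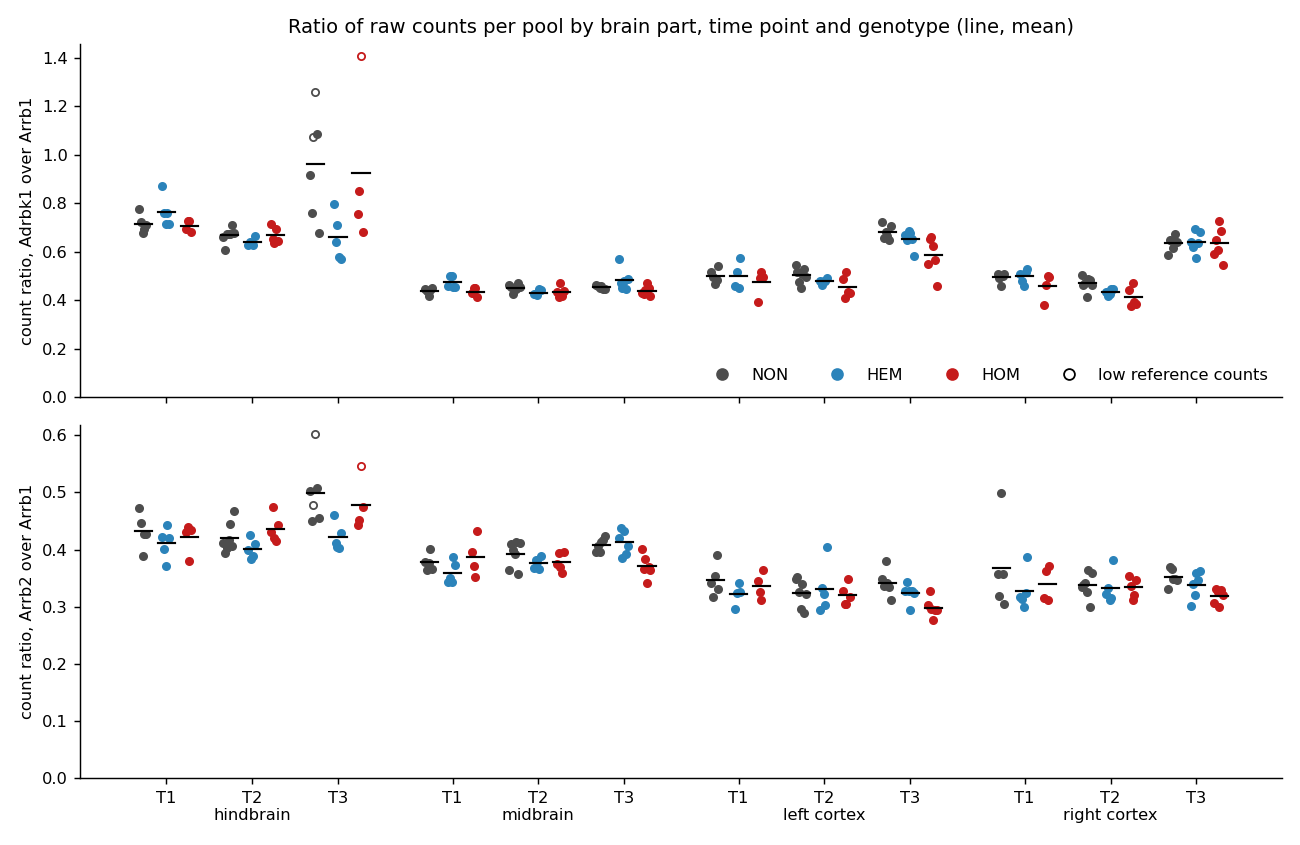
Ratios of counts within a pool, Adrbk1 over Arrb1 and Arrb2 over Arrb1, by region, time point and genotype (points for pools, lines for means, open points for the 3 pools of low reference counts, HEM at T1 including the pools without a collection time). In both cortices the 6 NON pools at T3 lie above all NON pools at T1 for Adrbk1 over Arrb1.

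Between the prediabetic stage and the onset of diabetes none of the 3 genes changed by the test. Of 36 tests of T2 against T1 in the 4 regions and 3 genotypes, 0 passed by edgeR and 0 by DESeq2, 1 had an unadjusted p under 0.05, and fold-changes ran from -0.17 to 0.20. Of all target genes 1.74% passed.

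By T3 both beta-arrestins were lower in every region of the NON mice relative to the reference genes, while with TMM scaling neither passed in any region. Adrbk1 was lower in NON hindbrain and midbrain and higher in left cortex. With TMM scaling it was higher in both cortices, at 0.16 in hindbrain and at -0.000609 in midbrain. Over all genotypes 24 of 36 tests passed, 23 lower and 1 higher, where 45.3% of the tests of all target genes passed (23 of 33 and 46.5% without HEM left cortex, which had 1 timed T1 pool), 41.9% lower and 3.49% higher. Since T1 and T3 are different mice, age, stage and any difference in handling cannot be told apart. The sources used here name no cartridge or run, and an effect of either was not tested.

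Among the NON regions, the drop of Arrb1 was largest in hindbrain. The NON pools at T1 held 10792, 11494, 11813, 12027 and 12695 normalised counts, and at T3 5525, 6574, 7650, 7775, 8226 and 9658. All T3 pools lay below all T1 pools, where 60.5% of all target genes passed. Such shares, here and below, are of genes past the test threshold. How many target genes had groups without overlap was not counted. Arrb1 fell by 0.67 (SE 0.09, adjusted p = 1.42e-07), Arrb2 fell by 0.47 (SE 0.07, adjusted p = 3.27e-06) and Adrbk1 fell by 0.28 (SE 0.08, adjusted p = 0.00223). Without the 3 pools of low reference counts the values were -0.50, -0.39 and -0.31, each still past the threshold. The median of all target genes was -0.54 here, so Arrb1 and Arrb2 moved about as far as the panel and Adrbk1 less.

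In midbrain NON Arrb1 was 14971, 15262, 15408, 15589 and 16056 at T1 and 12078, 12478, 12940, 13179, 13899 and 14035 at T3. The groups did not overlap, where 48.8% of all target genes passed. The change was -0.24 (SE 0.05, adjusted p = 5.91e-05), with -0.20 (SE 0.04, adjusted p = 0.000316) for Adrbk1 and -0.12 (SE 0.05, adjusted p = 0.0281) for Arrb2, against a median of -0.20 for all target genes. The Arrb2 call was lost with any of 5 single pools left out, at -0.11 in each case. With TMM scaling none of the genes passed here, at -0.045 for Arrb1, -0.000609 for Adrbk1 and 0.078 for Arrb2. Without the reference gene B2m the Arrb2 value turned to 0.018.

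The left cortex parted the kinase from the arrestins. NON Arrb1 was 19022, 19350, 19374, 19770 and 20304 at T1 and 15802, 16064, 16101, 16207, 16400 and 16616 at T3, while Adrbk1 was 9063, 9184, 10101, 10189 and 10434 at T1 and 10771, 10784, 10794, 10946, 11330 and 11394 at T3. In neither gene did the groups overlap, and on the reference-gene scale they were displaced in opposite directions, where 58.1% of all target genes passed. Arrb1 fell by 0.28 (SE 0.06, adjusted p = 0.000112), Arrb2 fell by 0.28 (SE 0.07, adjusted p = 0.00051), and Adrbk1 rose by 0.16 (SE 0.05, adjusted p = 0.0102). Without T1 AM pool 2/7 the Adrbk1 value was 0.15 (adjusted p = 0.0535), and without B2m 0.056, the call being lost in both. The opposite directions depended on the scale. With TMM scaling Arrb1 was at 0.0029 and Adrbk1 at 0.44, and with positive control probes both were lower, at -1.87 and -1.45.

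In the right cortex Arrb1 fell by 0.26 (SE 0.06, adjusted p = 0.00026) and Arrb2 fell by 0.26 (SE 0.07, adjusted p = 0.00193). NON Arrb2 was 6275 to 7462 over 5 pools at T1 and 4860 to 5945 over 6 pools at T3, without overlap, where 62.8% of all target genes passed, and Arrb1 overlapped through T1 PM pool 4/5 (14978). Adrbk1 gave 0.09 (SE 0.07, adjusted p = 0.236). Its T1 pools were 6890, 9365, 9706, 10067 and 10429 and its T3 pools 8976, 9974, 10108, 10303, 10371 and 10497. They overlapped.

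In the transgenic mice 13 of 24 tests passed, all of them lower, where 39.2% of the tests of all target genes passed. With TMM scaling none of these 13 calls remained. HEM left cortex had a single timed T1 pool, whose spread the fit takes from the other groups. Without that comparison 12 of 21 passed. HOM had a single PM pool in each region at T3. In HOM, Arrb1 fell by 0.49 in hindbrain, by 0.28 in left cortex and by 0.29 in right cortex, and Arrb2 fell by 0.35, 0.45 and 0.40. Adrbk1 passed in HOM hindbrain alone (-0.25). In HEM, compared in the PM only, Arrb1 passed in midbrain (-0.31) and right cortex (-0.34), and in left cortex at -0.32 against 1 T1 pool. Arrb2 passed in HEM right cortex (-0.34), and Adrbk1 in HEM hindbrain (-0.35) and midbrain (-0.23). With TMM scaling Adrbk1 was at 0.15 in HOM hindbrain and at -0.024 in HEM midbrain. With positive control probes as the scale it turned to 0.48 in HEM hindbrain. Some of these rested on single pools. HOM hindbrain Adrbk1 lost its call without T1 AM pool 6/7, T1 PM pool 8/9, T3 AM pool 3/4 or T3 AM pool 12 (-0.24 to -0.21), and HEM hindbrain Adrbk1 without T3 PM pool 7/9 (-0.33) or 11/13 (-0.31). In HEM right cortex, Arrb1 lost it without T1 PM pool 8 (-0.27) and Arrb2 without T1 PM pool 9/10 (-0.28).

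The difference between HOM and NON in the time change was tested 24 times for the 3 genes and passed in 0 by edgeR and 0 by DESeq2, with 1 unadjusted p under 0.05, a range of -0.17 to 0.18 and 0% called over all target genes.

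These levels are relative to the reference genes, and the choice of scale matters at T3. With TMM scaling Arrb1 and Arrb2 passed in 0 of 12 comparisons each, while Adrbk1 passed in 5 of 12, all of them higher in cortex. Those values were 0.44 and 0.46 in NON left and right cortex, 0.32 and 0.49 in HOM, and 0.41 in HEM right cortex. With the positive control probes as the scale, NON Adrbk1 turned to -1.45 in left cortex and -1.67 in right cortex. On that scale the median target gene itself changed by -2.27 to 0.49 over the 12 comparisons. The median total count in left cortex was 393475 at T1 and 151641 at T3. Relative to the median target gene, whose change in the cortices was -0.22 to -0.42, Adrbk1 stood 0.19 to 0.48 higher in all 6 cortical comparisons. B2m, 1 of the 3 reference genes, itself moved against the other two, by 0.42 in NON midbrain and -0.30 in NON left cortex. Its part in these results is given by leaving it out, after which 15 of the 72 time tests of the 3 genes passed instead of 24, and NON left cortex Adrbk1 was 0.06.

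**Figure D3:**
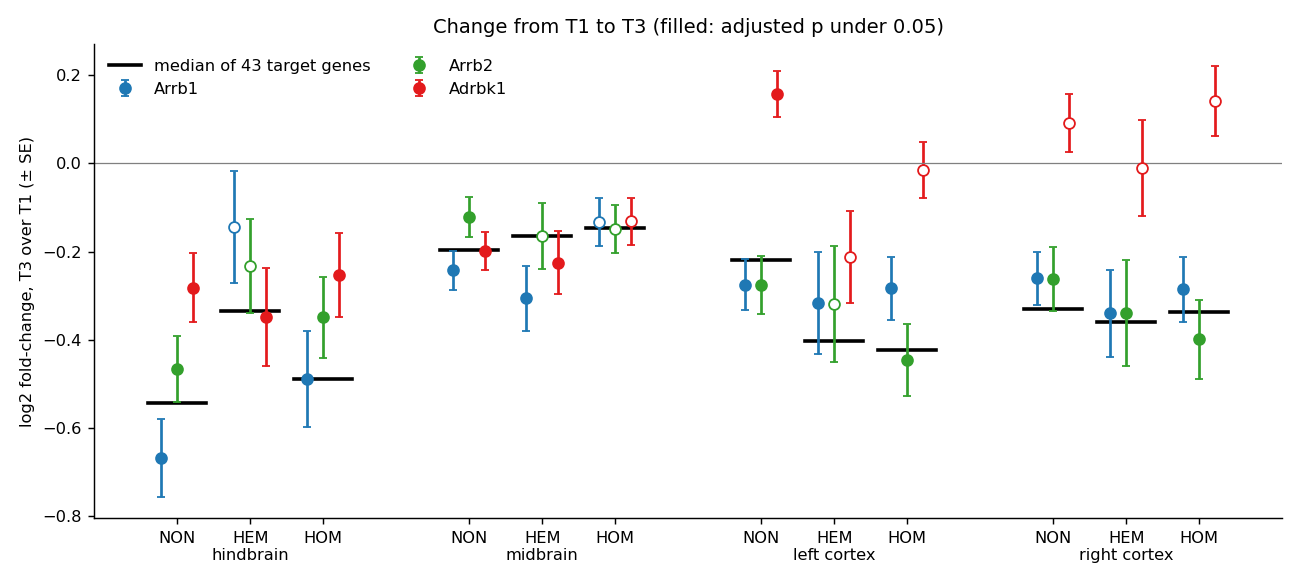
Log2 fold-change from T1 to T3 of each gene by region and genotype (points with standard error bars, filled where the adjusted p is under 0.05), beside the median over all target genes (black lines). Adrbk1 lies above the median in all 6 cortical comparisons, by 0.19 to 0.48 (HEM left cortex from 1 T1 pool), and with TMM scaling the arrestins passed in no comparison.

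The ratio of Adrbk1 to Arrb1, which uses no reference gene, rose in the cortex. In NON left cortex it was 0.468 to 0.539 over 5 pools at T1, 0.452 to 0.547 over 7 pools at T2 and 0.649 to 0.721 over 6 pools at T3. All 6 T3 pools lay above every earlier pool, in AM and PM alike. The T3 minus T1 difference was 0.44 on the log2 scale (SE 0.04, exact permutation test, two-sided, p = 0.00216, the smallest this design allows, adjusted p = 0.00733). In NON right cortex the ratio was 0.460 to 0.509 at T1 and 0.585 to 0.672 at T3, a difference of 0.36 (SE 0.04, exact permutation test, adjusted p = 0.00733). Leaving out any single pool kept these differences at 0.42 to 0.47 and 0.34 to 0.39.

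The transgenic cortices, whose ratio was not tested over time, also held higher ratios at T3. With the HEM pools without a collection time included, HEM left cortex spanned 0.450 to 0.574 at T1 and 0.583 to 0.687 at T3, and HOM right cortex 0.382 to 0.50 at T1 and 0.547 to 0.726 at T3. Neither pair overlapped. HOM left cortex overlapped, with 0.391 to 0.515 at T1 and 0.460 to 0.662 at T3. In NON midbrain the ratio difference was 0.05 (exact permutation test, adjusted p = 0.0602), and in NON hindbrain 0.39 (exact permutation test, adjusted p = 0.0862), where 2 of the 6 T3 pools had low reference counts. Without those pools the hindbrain difference was 0.24, also not past the threshold. The ratio of the arrestins to each other differed between T3 and T1 in NON midbrain by 0.11 (exact permutation test, adjusted p = 0.0272). In NON hindbrain it differed by 0.20 (SE 0.08, exact permutation test, adjusted p = 0.0582), which did not pass, and whether regions differed in this was not tested. Of 16 time tests of the ratios 3 passed.

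Whether the change to T3 differed between regions was tested in the NON mice. It did in 10 of 18 tests of the 3 genes, where 34.1% of the tests of all target genes passed. The change of Arrb1 was 0.66 higher in midbrain than in hindbrain (adjusted p = 2.06e-12), 0.62 in left cortex and 0.68 in right cortex. For Adrbk1 both cortices stood apart from midbrain, by 0.33 (adjusted p = 0.000142) on the left and 0.31 (adjusted p = 0.000138) on the right, and from hindbrain by 0.45 and 0.43. With positive control probes as the scale the differences from midbrain turned to -1.03 and -1.20. Arrb2 differed between hindbrain and the other regions by 0.49, 0.35 and 0.36. At T3, NON hindbrain shared mouse numbers with midbrain in pools 1/2, 5/6 and 7, and with each cortex in 5/6 and 7 only. Pools 5/6 and 7 had low reference counts in hindbrain. Without the 3 hindbrain pools of low reference counts the Arrb2 values were 0.29, 0.13 and 0.14, and those of Arrb1 0.45, 0.39 and 0.44. At T3 these values tie hindbrain to the other regions through a single mouse pool, 1/2, shared with midbrain. Without the mouse pool as a block the Arrb1 values were 0.42, 0.39 and 0.40, and 8 of 18 tests passed.

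Few comparisons between genotypes passed. Of 117 tests of HEM or HOM against NON, 13 passed, all of them higher in the transgenic mice, where 4.17% of the tests of all target genes passed and 3.94% were higher. With TMM scaling 1 of these 13 passed, and the higher genotype calls over all target genes went from 66 to 15. At T3 11 of 36 passed (background 9.88%), at T1 2 of 33 (2.11%) and at T2 0 of 48 (1.31%). Another 5 comparisons of groups had a single pool on 1 side and were not tested. On the reference-gene scale no genotype difference reached the 2-fold criterion. Under the alternatives HEM hindbrain at T3 AM reached 2.26 for Arrb1 and 2.19 for Arrb2. With only the transgenic pools marked previously diabetic at T3, the calls for Arrb1 (0.26) and Arrb2 (0.21) in HOM hindbrain AM and for Adrbk1 in HEM midbrain AM (0.11) and HOM right cortex AM (0.22) were lost.

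At T3 Arrb1 was higher in HEM hindbrain than in NON hindbrain in the AM and the PM, and Arrb2 in the AM, relative to the reference genes, while with TMM scaling none of these differences passed. Arrb2 in the PM gave 0.15 (SE 0.09, adjusted p = 0.557). Of all T3 hindbrain tests 17.1% passed. In the AM, Arrb1 was 10048 and 11500 in the HEM pools, 7191, 9287 and 10773 in the HOM pools and 5525 and 8226 in the NON pools. HEM lay above NON, where 27.9% of all target genes passed in that comparison, while HOM overlapped with it through pool 9, which had low reference counts. The HEM difference was 0.64 (SE 0.14, adjusted p = 0.00176) for Arrb1 and 0.44 (SE 0.12, adjusted p = 0.008) for Arrb2. These errors come from a single spread per gene over all hindbrain groups. The 2 NON AM pools themselves had an Arrb1 SD of 1909 on a mean of 6875. In the PM, HEM pools held 10128, 10283 and 11005 and NON pools 6574, 7650, 7775 and 9658, again apart (2.33% passed), with a difference of 0.40 (SE 0.11, adjusted p = 0.0284).

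In the HOM hindbrain at T3 AM all 3 genes were higher, Arrb1 by 0.40, Adrbk1 by 0.35 and Arrb2 by 0.33 (adjusted p = 0.0277 each). Without the 3 pools of low reference counts these were 0.29, 0.29 and 0.33 with adjusted p of 0.094, 0.153 and 0.094, and HEM Arrb1 and Arrb2 were 0.39 and 0.37 in the AM. That leaves a single NON AM pool, which the fit assumes to vary like the other groups. HEM Arrb1 in the PM was then 0.32 (adjusted p = 0.00413). Single pools carried much of this. Without NON AM pool 7 alone, HEM Arrb1 was 0.39 and Arrb2 0.37 (adjusted p = 0.119 each), without HEM AM pool 12 they were 0.54 and 0.40 (adjusted p = 0.0682 each), and HOM Arrb1 was 0.15 without NON AM pool 7. Each HOM call was also lost without other single pools. Without HOM AM pool 12, Arrb1 was 0.26 (adjusted p = 0.203) and Arrb2 0.21 (adjusted p = 0.228), and without HOM AM pool 9 Adrbk1 was 0.21 (adjusted p = 0.145). The HEM PM call for Arrb1 was lost without any of 6 of its 7 pools, at values of 0.32 to 0.43.

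**Figure D4:**
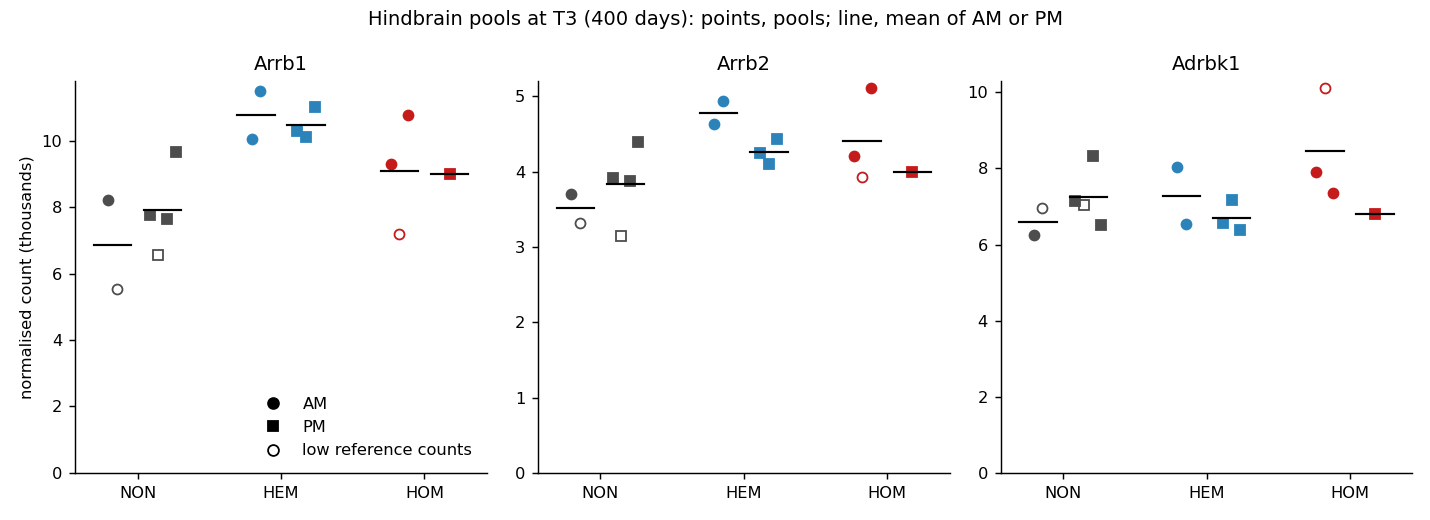
Normalised counts of the 3 genes in each hindbrain pool at T3 by genotype and collection time, with the 3 pools of low reference counts as open points and lines for the means of AM (circles) and PM (squares). HEM pools lie above NON pools for Arrb1, at 10048 and 11500 against 5525 and 8226 in the AM.

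In midbrain at T3 AM, Adrbk1 was 5415, 5713 and 6042 in NON, 6354, 6438, 6584, 6685 and 6862 in HOM and 5929, 6417, 6495 and 7246 in HEM. All HOM pools lay above NON, where 25.6% of all target genes passed, and 1 HEM pool lay within the NON range. The differences were 0.20 in HOM (adjusted p = 0.00525) and 0.19 in HEM (adjusted p = 0.0165). Arrb1 was also higher in HOM midbrain, 14252 to 16397 over 5 pools against 12078 to 13179 over 3, by 0.25 (SE 0.05, adjusted p = 0.00256). In right cortex at T3 AM, HOM exceeded NON by 0.25 for Adrbk1 (adjusted p = 0.0184) and by 0.24 for Arrb1 (adjusted p = 0.0153). With TMM scaling none of these midbrain and right cortex differences passed. Over the alternatives the lowest midbrain values were 0.066 in HOM and 0.073 in HEM for Adrbk1, and 0.11 in HOM for Arrb1. In HOM right cortex they were 0.062 for Adrbk1 and 0.057 for Arrb1. Pool 10 was the lowest NON pool in both regions. Without it the right cortex values were 0.19 and 0.17, and midbrain Adrbk1 was 0.16 in HOM and 0.15 in HEM, all with the call lost. HEM midbrain Adrbk1 also lost its call without HEM pool 1 (0.13) or NON pool 3/4 (0.19). HOM right cortex Adrbk1 lost its call without HOM pool 2/7 or HOM pool 6 (0.22 each).

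At T1 the calls were in right cortex PM, Adrbk1 in HEM by 0.33 (adjusted p = 0.021) and Arrb1 in HOM by 0.31 (adjusted p = 0.021). NON Arrb1 was 14978, 18664 and 19062 against 20896 and 22562 in HOM, and NON Adrbk1 was 6890, 9365 and 9706 against 10471 and 11264 in HEM. The lowest NON value in both was pool 4/5. Without it the differences were 0.19 and 0.20, no longer past the threshold. The HEM call was also lost without HEM pool 8 (0.27) or pool 9/10 (0.38), and the HOM call without HOM pool 1/5 (0.25). Each of these left a single transgenic pool. With TMM scaling the HOM Arrb1 difference here was 0.29 (adjusted p = 0.0129), the only one of the 13 that still passed.

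**Figure D5:**
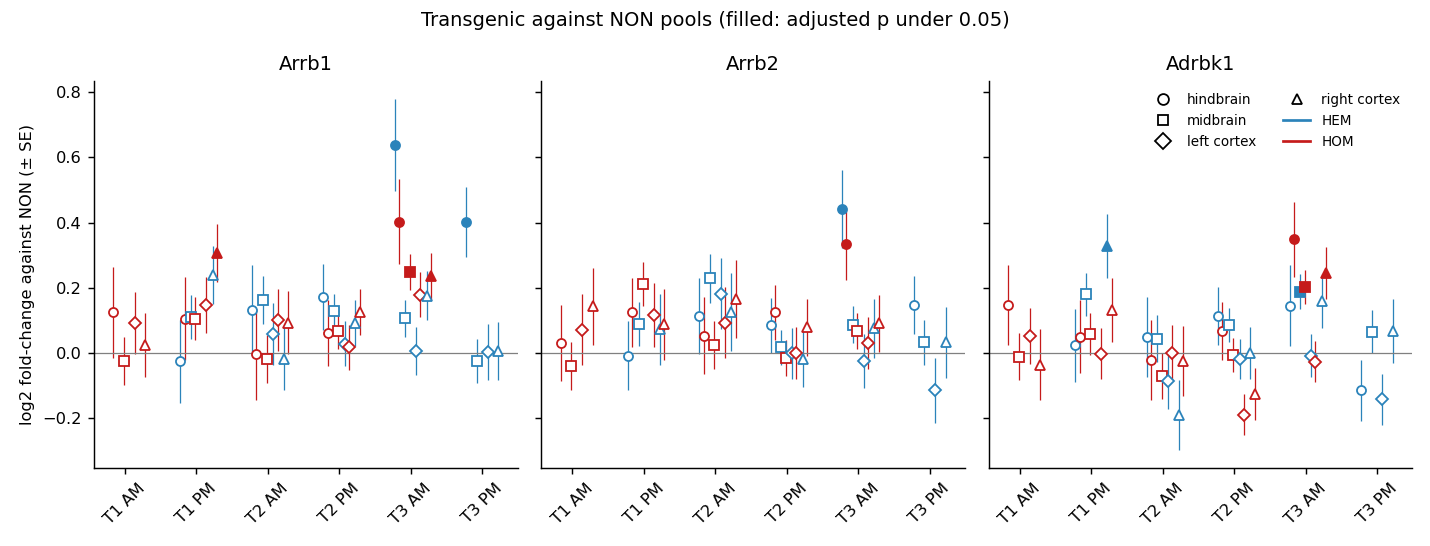
Log2 fold-change of HEM and HOM against NON for each gene in every tested group of region, time point and collection time, with standard error bars and filled points where the adjusted p is under 0.05. The 13 filled points are all above 0, and 11 of them are at T3, and with TMM scaling 1 of these 13 passed.

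At T2 PM, the comparison with the most NON pools, 24 tests gave 0 calls by edgeR and 1 by DESeq2, with 2 unadjusted p under 0.05 and values of -0.19 to 0.17. The nearest was Adrbk1 in HOM left cortex, with 8500, 9338 and 9872 in HOM against 9891, 10292, 10685, 10770 and 11023 in NON. The groups did not overlap, and 6.98% of all target genes passed there, and 2.62% over all T2 PM tests. The difference was -0.19 (SE 0.06, adjusted p = 0.0537), and without HOM pool 4/8 it was -0.24 (adjusted p = 0.0294). The ratio of Adrbk1 to Arrb1 in HOM right cortex differed by -0.25 from NON (exact permutation test, two-sided, p = 0.0179, the smallest possible, adjusted p = 0.0491), and in HOM left cortex by -0.21 (exact permutation test, adjusted p = 0.0786). Arrb2 over Arrb1 was lower in HEM midbrain, at -0.11 (exact permutation test, adjusted p = 0.0491). Those were 2 of 16 genotype tests of the ratios. At T2 AM, 24 tests also gave 0 calls by edgeR and 0 by DESeq2, with 2 unadjusted p under 0.05.

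Collection time moved 2 of 36 tests, where 9.88% of all tests passed. Both were among the 12 tests in HOM mice, and over all target genes 25% of the HOM tests passed. Arrb2 in HOM midbrain was 0.17 higher in the PM (adjusted p = 0.00473). Adrbk1 in HOM left cortex was lower in the PM, at -0.22 (adjusted p = 0.000824), and with TMM scaling this was -0.06 (adjusted p = 0.458).

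Other genes of the same signalling steps stood beside them on the panel. From T1 to T3, the 5 receptor probes, among them Calcr and the histamine receptor Hrh1, were lower in 9 of 60 tests and higher in 0. The arrestin-scaffolded kinases Akt1, Akt2, Gsk3a and Gsk3b were lower in 30 of 48 and higher in 5, and Ramp1, Ramp2 and Ramp3 were lower in 10 of 36 and higher in 8. Over all target genes 41.9% of these tests were lower and 3.49% higher. Median coefficients of variation within groups were 10.9% to 28.6% for the receptor probes and 3.92% to 8.84% for the kinases. Counts of these lists, here and for genotype below, are therefore not alike in precision. Relative to the reference genes, Gsk3b, which phosphorylates glycogen synthase, fell by 0.54 in NON hindbrain, where the median target gene was also at -0.54, and by 0.48 in right cortex, where the median was -0.33. Akt2 fell by 0.88 in NON hindbrain. With TMM scaling the time calls over all target genes went from 21 higher and 222 lower to 62 and 70. Akt1 was higher by 0.35 and 0.37 in NON left and right cortex, and Ramp1, which turns the calcitonin receptor into an amylin receptor, by 0.55 and 0.63.

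Between regions in NON, the kinases were higher in cortex than in midbrain or hindbrain in 13 of 16 tests and lower in 1, where 46.5% of all target gene tests were higher and 36.6% lower. The receptor probes were lower in 14 of 20 and higher in 2. Of these, 3 probes target the calcitonin receptor gene and gave 12 of the 14 lower calls, and Hrh1 gave both higher calls, against hindbrain. Calcr was -5.16 in left cortex against midbrain. For genotype at T3, the kinases were higher in 12 of 48 tests and the receptor probes in 0 of 60, where 9.3% of all target gene tests were higher.

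Across all pools of the 4 regions, the genes most like Arrb1 in log2 normalised count were Pdk1 (Pearson r = 0.945), Gsk3a (0.903) and Npy (0.902). Those most like Arrb2 were Arrb1 (0.893), Pdk1 (0.887) and mTor (0.844). Adrbk1 was nearest to Pik3r1 (0.831), Gsk3a (0.763) and Akt2 (0.737). These are descriptions over pools that share regions, mice and the reference-gene divisor. Taken within groups, over 187 pools in groups of more than 1, Arrb1 was nearest to mTor (0.70), Pik3ca (0.66) and Pdk1 (0.65), Arrb2 to Pdk1 (0.70), Arrb1 (0.57) and Pde3b (0.53), and Adrbk1 to Hdac5 (0.56), Ramp2 (0.53) and Pik3r1 (0.40). Adrbk1 and Arrb1 had an r of 0.548 over all pools and 0.10 within groups.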

How the data were processed

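The authors pooled equal quantities of RNA of 1 or 2 mice, hybridised it to a custom NanoString nCounter CodeSet and deposited raw counts per pool, not normalised. The 3 genes and the gene lists were chosen with earlier results of these data known. Groups came from the labels. The 12 HEM T1 pools without a collection time entered the region fit, and formed a group outside the other comparisons.

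Counts were tested with edgeR 4.0.16 (R 4.3.3) quasi-likelihood tests, taking the reference genes' geometric mean in a pool as its library size. P-values were adjusted by Benjamini-Hochberg over the 43 target genes of a comparison, with a threshold of 0.05. NanoStringDiff, the test of the study, was not run here. Its criterion of an absolute log2 fold-change above 1 was applied as an alternative. Region and time by region were fitted jointly with the mouse pool as a block. Time, genotype and collection time were fitted per region, each combination of those factors having its own mean. Genotype groups with under 2 pools were not tested. Fitted fold-changes used a prior count of 0.125. Ratios were tested by exact two-sided permutation (SciPy 1.17.1), adjusted over 44 tests.

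The labels give pools of different regions the same mouse numbers, and this pairing was checked by correlating deviations from group means over genes. The median r ran from -0.02 (hindbrain with midbrain) to 0.41 (left with right cortex). The same numbers in different genotypes are different mice. No pair of pools within a group agreed within sampling noise (198 pairs, lowest chi-square per degree of freedom 4.68). P-values measure the spread between pools, which the edgeR fits take per gene over all groups of a fit and not from the compared groups alone.

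Genes were named by rule: the 3 genes, the receptors, Ramps and kinases listed, and for each of the 3 the 3 most correlated genes over all pools and within groups. Akt, Gsk3, Ramp and Calcr values are examples chosen after their values were seen. Alternatives were DESeq2 1.42.0, TMM, other scales and filters, each reference gene left out, and each pool left out. The edgeR fits of region, time and genotype were tested on simulated data. There a log2 change of 0.25 was called in 36% of genes for NON midbrain T3 against T1. It was called in 28% for HOM against NON midbrain at T3 AM, and in 99% for NON right cortex against midbrain. All 3 genes matched RefSeq names through their probe transcripts. No sequence or coordinate is given.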

Additional observations from a re-analysis of the deposited data

Results flagged for a closer look

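The T3 minus T1 change differed between regions in NON mice, by a test of the difference itself, in 10 cases. This test compares regions within mouse pools. At T3, hindbrain shared only pools 1/2, 5/6 and 7 with midbrain, and 5/6 and 7 with each cortex. Of these, 5/6 and 7 had low reference counts in hindbrain. The fits per region, over all pools, gave Arrb1 changes of -0.67 in hindbrain and -0.24 in midbrain. Against hindbrain, the change of Arrb1 was higher by 0.66 in midbrain (adjusted p = 2.06e-12), 0.62 in left cortex (adjusted p = 5.12e-10) and 0.68 in right cortex (adjusted p = 1.27e-11), and that of Arrb2 by 0.49 (adjusted p = 9.01e-08), 0.35 (adjusted p = 0.000336) and 0.36 (adjusted p = 0.000204). The change of Adrbk1 was higher than in hindbrain by 0.45 in left cortex (adjusted p = 1.04e-05) and 0.43 in right cortex (adjusted p = 1.41e-05), and higher than in midbrain by 0.33 (adjusted p = 0.000142) and 0.31 (adjusted p = 0.000138), which turned to -1.03 and -1.20 with positive control probes as the scale. The part of the 3 hindbrain pools of low reference counts is given by leaving them out. The Arrb2 values in left and right cortex were then 0.13 and 0.14 instead of 0.35 and 0.36. At T3 that fit ties hindbrain to the other regions through a single mouse pool, 1/2. Without the mouse pool as a block the Arrb1 values were 0.42 in midbrain, 0.39 in left cortex and 0.40 in right cortex.

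One pool stood far from the others of its group. Adrbk1 in T3 right cortex HEM AM pool 1 was 11226.5 normalised counts, with the other 3 pools between 10800 and 10853. It was 1 of 33 gene and group combinations examined, and chance alone sets apart about 1 in 20.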

How the results depend on the processing

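Of the alternatives, DESeq2 kept the direction and the side of the threshold in 97 of 98 results, and subtraction of the negative probe mean in 143 of 143. On the reference-gene scale, 0 tests of the 3 genes passed the study's criterion of more than 2-fold. This held for region, time by region, time, genotype and collection time. The tests passed for time numbered 24, 5 with TMM scaling and 15 without B2m. Those for genotype numbered 13, and were 2 with TMM, 4 when adjusted over all genotype tests, 4 with only the 2 groups compared in the fit, 8 with the positive control probes as scale and 8 without another reference gene. For collection time 2 passed, and 5 with TMM. For time by genotype 0 passed, and 3 with positive controls. Over all target genes, TMM changed the split of higher and lower calls from 322 and 194 to 260 and 257 for region, from 21 and 222 to 62 and 70 for time, from 66 and 4 to 15 and 4 for genotype, and from 7 and 44 to 19 and 18 for collection time. The cause of these changes was not tested.

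Between regions in NON, positive controls turned Adrbk1 midbrain minus hindbrain to 0.75 and right minus left cortex to 0.18, and gave 0.24 for Arrb1 right minus left cortex. Adrbk1 right minus left cortex lost its call with TMM (-0.074) and without the second reference gene (-0.086), and lay between -0.113 and -0.081 with each mouse pool left out. Arrb2 in each cortex minus midbrain lost its call without the third reference gene (0.049 and 0.047). The Adrbk1 time by region differences of left and right cortex against midbrain turned to -1.03 and -1.20 with positive controls.

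For T3 minus T1 with TMM, NON hindbrain gave 0.16 for Adrbk1, -0.22 for Arrb1 and -0.021 for Arrb2, and HOM hindbrain 0.15 for Adrbk1 and 0.054 for Arrb2. NON midbrain gave -0.000609 for Adrbk1, -0.045 for Arrb1 and 0.078 for Arrb2. NON left cortex gave 0.0029 for Arrb1 and 0.0023 for Arrb2, and NON right cortex 0.46 for Adrbk1, 0.11 for Arrb1 and 0.10 for Arrb2. Arrb1 was 0.052 in HOM left cortex, 0.16 in HEM left cortex and 0.068 in HOM right cortex, and HEM right cortex gave 0.082 for Arrb1 and 0.083 for Arrb2. Without B2m, NON midbrain gave -0.061 for Adrbk1, -0.10 for Arrb1 and 0.018 for Arrb2, and NON left cortex 0.056 for Adrbk1. Positive controls gave 0.48 for HEM hindbrain Adrbk1, -1.45 and -1.67 for NON left and right cortex Adrbk1 and -0.16 for NON midbrain Arrb2, which also lost its call when adjusted over all time tests (-0.12). With each pool left out, NON left cortex Adrbk1 lay between 0.14 and 0.18 and NON midbrain Arrb2 between -0.14 and -0.11.

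Without the mouse pool as a block, 45 of 54 region tests and 8 of 18 time by region tests passed, and Arrb2 left and right cortex minus hindbrain in the time by region test were 0.19 and 0.20, and those of Arrb1 in midbrain, left cortex and right cortex 0.42, 0.39 and 0.40.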

Other observations

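The 12 HEM pools at T1 without a collection time entered the region comparisons and none of time, genotype or collection. In hindbrain their Arrb1 values were 11220, 11770 and 12416 normalised counts, and in midbrain 13702, 13990 and 15780. In left cortex they were 17396, 19065 and 21815, and in right cortex 19774, 20906 and 22466. Adrbk1 was 8015, 8958 and 10824 in hindbrain, 6872, 7013 and 7224 in midbrain, 7829, 9877 and 10002 in left cortex, and 9100, 10042 and 11421 in right cortex. Arrb2 ran from 4162 to 5246 in hindbrain, from 4795 to 5419 in midbrain, from 5950 to 6466 in left cortex and from 5911 to 7108 in right cortex.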
